A study of Zea mays with 2 samples.

Results

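A stretch of maize chromosome 4 from 10 to 40 Mb was described in endosperm RNA of the fl4 (floury4) mutant and of the wild type (WT), both of Zea mays at 19 days after pollination. Features were chosen by position alone, as those whose listed start lies on chromosome 4 from 10 Mb up to but not including 40 Mb. Of 65535 listed features 954 met this rule, and 562 of them had at least 1 FPKM (fragments per kilobase of feature, scaled to the number of mapped fragments) in either library, of 38591 such features with a readable position in all. The stretch itself was picked with earlier results of these libraries known, among them the high sums of its windows at 21 and 29 Mb and the frequent differences from 15 to 20 Mb. Its levels and ratios are therefore a description and support nothing by themselves.

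The fl4 group and the WT group have 1 library each, with kernel given as the source and endosperm as the tissue. The labels name no inbred background. The series design speaks of triplicates, yet a single value per feature and genotype is given, and any pooling of replicates is a point not given in the sources used here. There is thus no replicate check on any difference below, no p-value is given, and each comparison is between these 2 libraries. In RNA of a whole tissue, fewer cells of a type and less RNA per cell cannot be told apart.

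Maize endosperm fills with starch and with zeins, alcohol-soluble storage proteins that are packed into protein bodies in the endoplasmic reticulum. The alpha-zeins are encoded by families of compact, intronless and nearly identical genes that lie in clusters, several of them on the short arm of chromosome 4. Short reads are hard to assign among such copies. The fl4 allele is known as a lesion of an alpha-zein gene, and its kernels are soft and opaque. The files list positions without gene names and on a genome build not given in the sources used here, so no feature of the stretch was identified as a zein or as any other gene, and the tissue label was not checked against marker genes.

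Most of the RNA signal of the stretch was in 4 compact loci, and these differed between the genotypes in opposite directions. The sum over features above 0 in both libraries was 53876 FPKM in fl4 and 56143 FPKM in WT, a log2 ratio of -0.06. All 562 features together held 4.77% of the fl4 total and 5.48% of the WT total. These totals include features listed at 0 in 1 library, which added more to fl4 than to WT. Over all features of at least 1 FPKM the log2 ratio of the sums was 0.14 with such features and 0.04 without them. The difference between the 2 shares thus depends in part on them. The 6 features that reached 1000 FPKM, on 4 spans of 968 to 1460 bp, gave 41221 FPKM in fl4 and 43891 FPKM in WT. The other 541 features above 0 in both libraries gave 12655 FPKM in fl4 and 12252 FPKM in WT, a log2 ratio of 0.05. The near balance of the whole stretch was thus the sum of a lower locus at 21.3 Mb and a higher group at 29.9 Mb.

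The locus chr4:21312309-21313388, with a span of 1080 bp, was the most abundant of the stretch in WT and was lower in fl4. It is listed with 2 features. The larger stood at 11559 FPKM in fl4 and 21181 FPKM in WT, 1.83-fold lower in the mutant, and ranked 8 among all features of fl4 and 4 among those of WT. The smaller stood at 206 FPKM in fl4 and 408 FPKM in WT, 1.98-fold lower. Both features of the span thus lay on the same side, each within 2-fold of equality as the authors scaled the values. The smaller passed 2-fold with median centring (-1.06), the trimmed mean factor (-1.06) and equal totals (-1.12), and the larger with equal totals alone (-1.01, log2). The span held 11765 FPKM in fl4 and 21588 FPKM in WT, a gap wider than that of the whole stretch. Without its larger feature the sum of the stretch turned to a log2 ratio of 0.28.

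The second concentration lay 8.61 Mb further along, where 3 loci stood within 139 kb. Their 5 features of at least 1000 FPKM held 29662 FPKM in fl4 and 22711 FPKM in WT, a log2 ratio of 0.39. These loci did not move alike. The sum at 29.9 Mb was higher in fl4, while the locus at 30.1 Mb was nearly equal in the 2 libraries.

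At chr4:29922222-29923189, a span of 968 bp, the larger feature stood at 12618 FPKM in fl4 and 10202 FPKM in WT, 1.24-fold higher in the mutant and the most abundant value of the stretch in fl4. The smaller feature on the same span stood at 1346 FPKM in fl4 and 2247 FPKM in WT, 1.67-fold lower. The 2 features of this span therefore lay on opposite sides, and their sum was 13965 FPKM in fl4 and 12449 FPKM in WT. Whether reads were divided differently between features of a span in the 2 libraries was not tested.

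The neighbouring locus, chr4:29933782-29935053, had the only 2-fold difference among the 12 most abundant features as scaled by the authors, beside the locus at 21.3 Mb that joined it under other scalings. Its larger feature stood at 7809 FPKM in fl4 and 2461 FPKM in WT, 3.17-fold higher, and ranked 10 in fl4 and 27 in WT. Its smaller feature stood at 1226 FPKM in fl4 and 1200 FPKM in WT. The difference of the span, 5373 FPKM, thus came almost wholly from 1 of its 2 features. The third locus, chr4:30060007-30061466, stood at 6663 FPKM in fl4 and 6601 FPKM in WT, a log2 ratio of 0.01 that was -0.07, -0.06 and -0.13 under the other scalings tried.

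The next most abundant features lay under 1000 FPKM, and most of them differed by about 1.5-fold. The feature chr4:36305735-36307195 stood at 694 FPKM in fl4 and 654 FPKM in WT. The feature chr4:36877302-36884877 stood at 390 FPKM in fl4 and 603 FPKM in WT, 1.55-fold lower. The shortest of the group, chr4:32343354-32343435 at 82 bp, stood at 374 FPKM in fl4 and 578 FPKM in WT, 1.54-fold lower. The locus chr4:14854375-14859167 is listed with 2 features, and both were higher in the mutant. The first stood at 544 FPKM in fl4 and 370 FPKM in WT, 1.47-fold higher, and the second at 516 FPKM in fl4 and 324 FPKM in WT, 1.59-fold higher. Of the 12 most abundant features 7 were higher and 5 lower in fl4, and with equal totals over all but the 20 most abundant features of the genome 3 of the 7, at 29.9, 30.1 and 36.3 Mb, turned to the lower side.

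**Figure D1:**
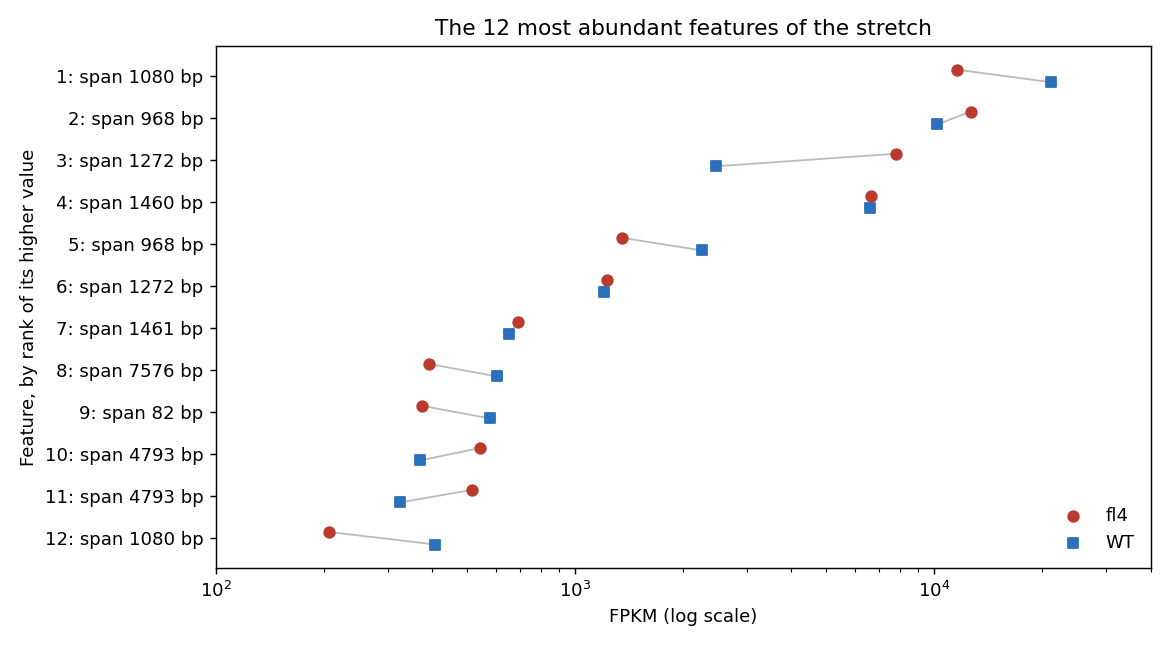
FPKM on a log axis of the 12 most abundant features in the fl4 library (circles) and the WT library (squares), ordered by the higher value and named by listed span, with 1 library per genotype and no error. The feature with a span of 1080 bp at the top stood at 11559 FPKM in fl4 and 21181 FPKM in WT, and the third feature, with a span of 1272 bp, at 7809 FPKM in fl4 and 2461 FPKM in WT.

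Along the stretch, the 30 windows of 1 Mb held 8 to 36 features each with a median of 19, and most windows had close sums in the 2 libraries. In 25 of the 30 windows the log2 ratio of the sums lay within 0.3 of equality. The 25 windows that stayed under 1000 FPKM summed to 105 to 902 FPKM in fl4 and to 98.7 to 968 FPKM in WT. As the authors scaled the values 22 windows were higher and 8 lower in fl4, but 17 and 13 with median centring and 11 and 19 with equal totals, so the number of higher windows depends on the scaling.

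The 5 windows beyond 0.3 were few enough to describe singly. The window from 21 to 22 Mb held 12258 FPKM in fl4 and 22167 FPKM in WT, a log2 ratio of -0.85, and without its largest feature it held 698 FPKM in fl4 and 986 FPKM in WT, a log2 ratio of -0.50. Of that remainder the smaller feature of the same locus gave 206 FPKM in fl4 and 408 FPKM in WT. The window from 29 to 30 Mb held 23330 FPKM in fl4 and 16443 FPKM in WT, a log2 ratio of 0.50. Its largest feature differed less than the rest, and without that feature the log2 ratio was 0.78. In both windows the direction stayed when the single largest feature was left out. For the window from 29 to 30 Mb that remainder was 10711 FPKM in fl4 and 6240 FPKM in WT. It included the larger feature of chr4:29933782-29935053, at 7809 FPKM in fl4 and 2461 FPKM in WT. Its excess in fl4 was larger than that of the whole remainder. Without both features the sum of this window was thus lower in fl4.

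The window from 14 to 15 Mb held 1345 FPKM in fl4 and 907 FPKM in WT, a log2 ratio of 0.57, which was 0.58 without its largest feature. Over features above 0 in both libraries the window from 34 to 35 Mb had the lowest ratio after that at 21 Mb, with 250 FPKM in fl4 and 335 FPKM in WT, a log2 ratio of -0.43. There the ratio was -0.17 without the largest feature, chr4:34264142-34265135, at 33.7 FPKM in fl4 and 91.7 FPKM in WT. The window from 35 to 36 Mb held 224 FPKM in fl4 and 180 FPKM in WT over features above 0 in both libraries, and 373 FPKM in fl4 and 180 FPKM in WT over all features. Its log2 ratio moved from 0.31 to 1.05 when features listed at 0 in WT were counted. The window from 10 to 11 Mb was the only one of the 30 whose direction turned with features listed at 0. It held 105 FPKM in fl4 and 98.7 FPKM in WT without them, a log2 ratio of 0.09, and 105 FPKM in fl4 and 144 FPKM in WT with them, a log2 ratio of -0.45.

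**Figure D2:**
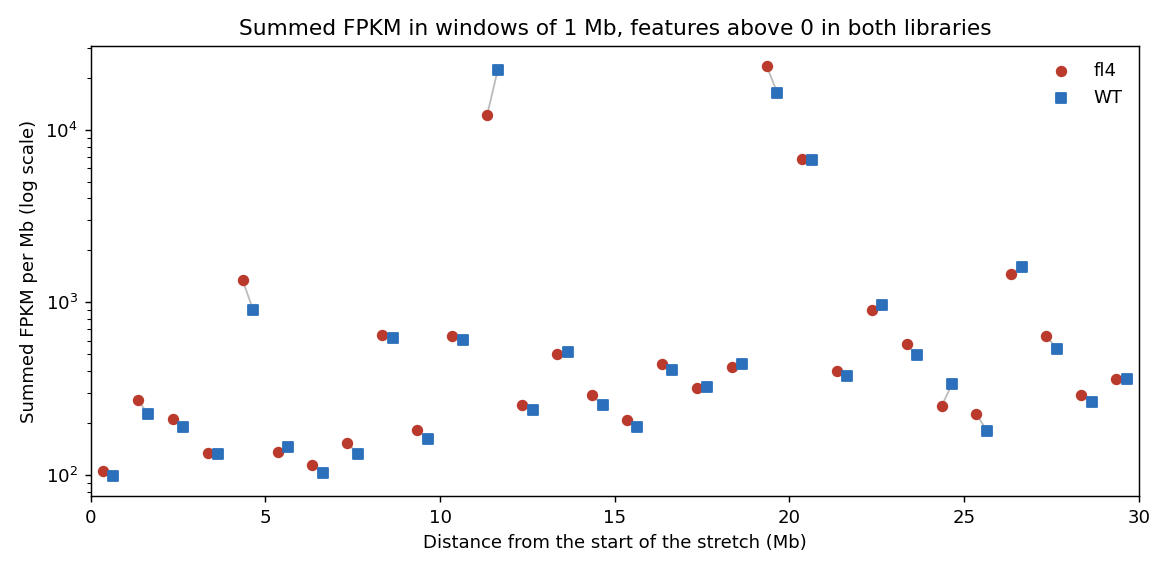
Summed FPKM per window of 1 Mb on a log axis, for fl4 (circles) and WT (squares), against the distance from the start of the stretch, over features above 0 in both libraries, with 1 library per genotype and no error. In 25 of 30 windows the sums lay within a log2 ratio of 0.3, and 3 windows stood far above the rest, reaching 23330 FPKM in fl4 and 22167 FPKM in WT.

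Counted feature by feature, 476 of the 562 features (84.7%) lay within 2-fold of equality. For these counts the log2 ratio was taken as log2((fl4 + 1)/(WT + 1)), which understates the change of low features. At least 2-fold higher in fl4 were 46 features (8.19%), against 6.03% of all 38591 features, and at least 2-fold lower 40 features (7.12%), against 4.58% of all. Higher by 4-fold or more were 14 features (2.49%, against 2.05% of all features), and lower by 4-fold or more were 10 (1.78%, against 1.24% of all). The median log2 ratio was 0.06 in the stretch and 0.07 over all features. The middle of the distribution thus stood at the same place as that of the genome while its width was larger, with an interquartile range of 0.61 against 0.48 in all other features.

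The share of 2-fold differences was uneven along the stretch. From 10 to 20 Mb 35 of 165 features (21.2%) differed 2-fold, from 20 to 30 Mb 25 of 191 (13.1%), and from 30 to 40 Mb 26 of 206 (12.6%), against 10.6% over all features. In blocks of 5 Mb the share was 17.2%, 25.6%, 19.8%, 8.18%, 14.0% and 11.7% in order of position. The blocks just after the stretch, from 40 to 45 Mb and from 45 to 50 Mb, had 19.2% and 16.4%, more than the last blocks inside it. The first 10 Mb of the chromosome, which lie outside the stretch, had 32.5%, and the whole chromosome from 40 Mb on had 11.0%. The interquartile range of the log2 ratios followed the same order, at 1.04 in the first 10 Mb, at 0.66, 0.60 and 0.59 in the 3 blocks of 10 Mb of the stretch, and at 0.46 from 40 Mb on. The first 30 Mb of chromosome 7, another stretch with a high sum (58341 FPKM in fl4 and 81363 FPKM in WT), had 103 of 612 features (16.8%) beyond 2-fold and an interquartile range of 0.63, close to the values here. That sum leaves out features listed at 0 in 1 library. With them it was 99363 FPKM in fl4 and 81405 FPKM in WT, so its direction turned.

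**Figure D3:**
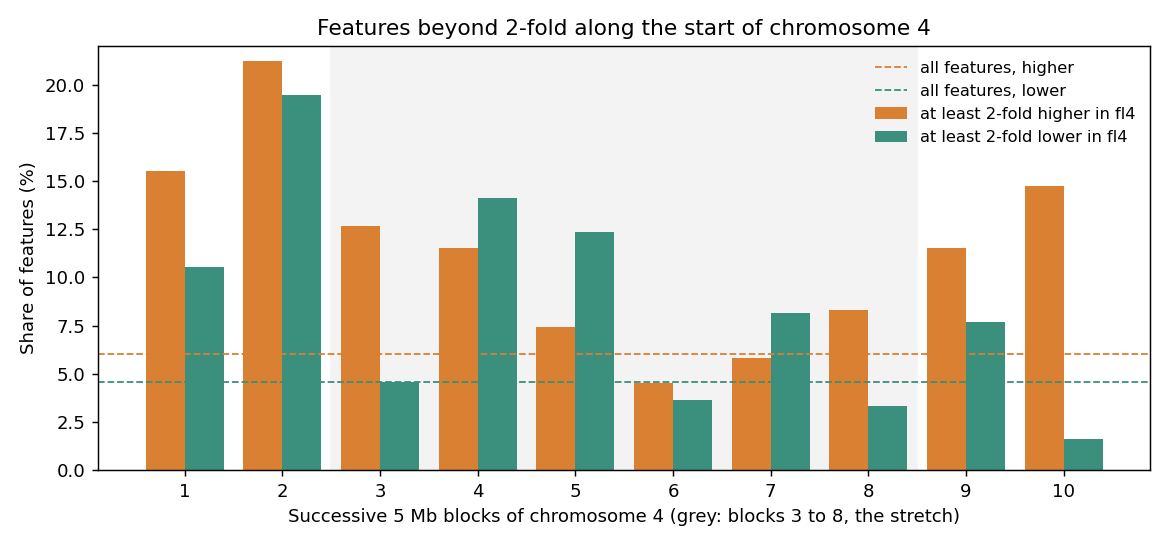
Share of features, in percent, beyond 2-fold on the higher or on the lower side in fl4 relative to WT in successive 5 Mb blocks from the start of chromosome 4, with the shares of the whole table as dashed lines. The grey band holds the 6 blocks of the stretch, of which the second had 25.6% of its features beyond 2-fold in either direction and the fourth 8.18%.

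The listed span went with these shares, and it differed little between the stretch and the rest. Features with a span under 300 bp made up 11.0% of the features of the stretch and 11.1% of all others. Of the 62 short features of the stretch 15 were higher and 10 lower by 2-fold, 40.3% in all, against 41.7% of other features of that length. For spans from 300 bp to under 1000 bp 20 of 82 features differed, 24.4% against 14.7% elsewhere, and for spans from 1000 bp to under 5000 bp 33 of 267, 12.4% against 5.71% elsewhere. With spans from 5000 bp 8 of 151 features differed, 5.30% against 3.87%. The stretch thus stood furthest above other features in the 2 middle classes, while its shortest features had a slightly lower share than others of that length.

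By level, 307 features had their higher value between 1 and 10 FPKM, and 23 of them were higher and 24 lower by 2-fold, 15.3% against 10.7% of other features at that level. Among the 221 features of 10 to 100 FPKM 20 were higher and 16 lower, 16.3% against 10.3% of other features at that level. Of the 28 features of 100 to 1000 FPKM 2 were higher and 0 lower, 7.14% against 10.1% of others, and of the 6 above that 1 was higher, 16.7% against 20.8% of others. The smaller feature at 21.3 Mb, at a log2 ratio of -0.98, lay just inside the limit on the lower side, so this count of 0 rests on where the limit was set.

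**Figure D4:**
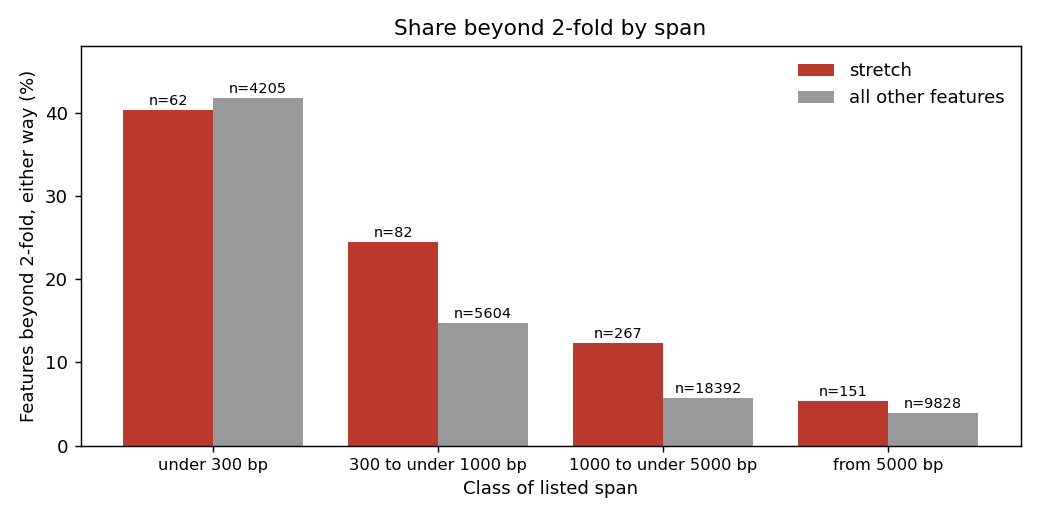
Share of features beyond 2-fold in either direction, in percent, by class of listed span, for the stretch (left bars) and for all other features with at least 1 FPKM (right bars), with the number of features above each bar. The stretch stood at 24.4% against 14.7% for spans from 300 bp to under 1000 bp and at 40.3% against 41.7% for spans under 300 bp.

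The features with the largest differences were of low to moderate abundance. Of 248 features that reached 10 FPKM and were above 0 in both libraries, 19 (7.66%) were beyond 2-fold on the higher side in fl4 and 13 (5.24%) on the lower side, against 4.83% and 3.82% of the 15495 such features overall. The largest excess was at chr4:33229854-33230220, a span of 367 bp with 64.6 FPKM in fl4 and 0.246 FPKM in WT. The feature chr4:32791923-32792008, only 86 bp long, stood at 111 FPKM in fl4 and 10.7 FPKM in WT, 10.4-fold higher. These 2 were the most abundant of the 6 with the largest excess.

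The other 4 stood between 10.4 and 21.3 FPKM in fl4. The feature chr4:21221044-21222058 stood at 21.3 FPKM in fl4 and 3.54 FPKM in WT, 6.03-fold higher. It lies less than 100 kb before the abundant locus at 21.3 Mb, which was lower, so neighbours here went opposite ways. The feature chr4:12909429-12910504 stood at 10.4 FPKM in fl4 and 0.557 FPKM in WT. A second feature of at least 1 FPKM is listed on its span, and the log2 ratios of the pair differed by 3.53, the widest gap of any shared span of the stretch.

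In the other direction, chr4:24242485-24243045 stood at 0.0013 FPKM in fl4 and 11.0 FPKM in WT. A value this close to 0 may be a failed estimate, and no fold is given. Also lower were chr4:34493392-34495498 with 3.36 FPKM in fl4 and 18.7 FPKM in WT, 5.58-fold lower, and chr4:34567194-34568649 with 7.38 FPKM in fl4 and 32.6 FPKM in WT, 4.41-fold lower. These 2 lie in the window from 34 to 35 Mb, and the lower sum of that window includes them.

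The feature chr4:15801575-15801685, only 111 bp long, stood at 10.5 FPKM in fl4 and 50.1 FPKM in WT, 4.76-fold lower. The feature chr4:21698367-21703377, with 5011 bp a long one, stood at 15.6 FPKM in fl4 and 58.6 FPKM in WT, 3.76-fold lower. The feature chr4:23351858-23352086 stood at 6.43 FPKM in fl4 and 24.1 FPKM in WT, 3.74-fold lower. Both short and long spans thus occurred among the lower features.

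Taken over both libraries, features listed at 0 in a single library were as frequent as in the genome as a whole. They numbered 15 of 562 (2.67%, against 2.68% of all features). In fl4 7 features of the stretch (1.25%) were listed at 0, against 387 of all 38591, and in WT 8 (1.42%, against 1.67% of all features). The share was thus slightly above that of all features in fl4 and slightly below it in WT. Since these tables hold no read counts, a 0 may stand for an estimate that failed, and no fold is given for such features. Of at least 10 FPKM in the other library were 7 of these 15 features, and 5 of the 7 had spans of 121 bp or less. The same count was not made over all features, so it shows nothing particular to the stretch.

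The highest of them was chr4:35927918-35928023, 106 bp long, with 115 FPKM in fl4 and a listed 0 in WT. It starts just after chr4:35922653-35927429, a span of 4777 bp with 2 features. The first of these had 33.6 FPKM in fl4 and a listed 0 in WT, and the second stood at 13.9 FPKM in fl4 and 0.182 FPKM in WT. These 3 adjoining features were thus all high in fl4 and at or near 0 in WT, while the feature before them, chr4:35916994-35920931, stood at 40.9 FPKM in fl4 and 26.6 FPKM in WT, 1.54-fold higher in fl4.

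The other features of at least 10 FPKM that were listed at 0 in WT were chr4:21322094-21322197 at 12.9 FPKM in fl4, which lies less than 10 kb after the abundant locus at 21.3 Mb, and chr4:38191342-38191429 at 11.3 FPKM in fl4. Listed at 0 in fl4 were chr4:10208133-10208219 at 38.4 FPKM in WT, chr4:15603026-15613201 at 15.6 FPKM in WT and chr4:18023294-18023414 at 10.7 FPKM in WT. All 3 of these lie in the first 10 Mb of the stretch, which held 5 of the 7 features listed at 0 in fl4. That part held 165 of the 562 features, and 3.03% of the 165 were listed at 0 in fl4, against 1.25% in the whole stretch. In WT 1.82% of the 165 were listed at 0, against 1.42% in the whole stretch. With so few such features, no concentration is read from these counts.

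**Figure D5:**
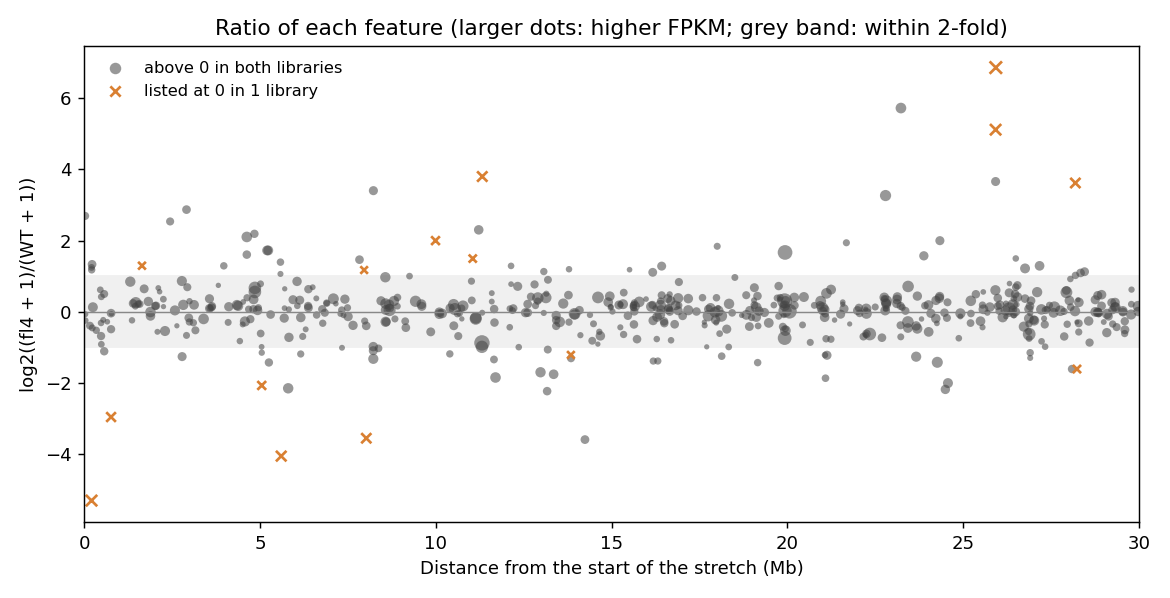
Log2 ratio of fl4 to WT, each with 1 FPKM added, of the 562 features against the distance from the start of the stretch, with larger dots for higher FPKM, crosses for features listed at 0 in 1 library and a grey band for differences within 2-fold. The 476 features within 2-fold lie in the band, and 46 lie above it and 40 below it.

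Most segments with a 2-fold difference held a single one. Of 235 segments of 100 kb with a feature of at least 1 FPKM, 67 held a 2-fold difference. Of these, 53 held exactly 1, 14 held 2 or more and 4 held 3 or more, with 13 of the 86 differences in those 4. The 562 features are spread thinly over these segments, and the same count was not made elsewhere. The counts therefore show nothing particular to this stretch. Besides the segment at 35.9 Mb, the segment at 10.2 Mb held 4. There chr4:10209092-10212030 stood at 2.66 FPKM in fl4 and 0.545 FPKM in WT, and chr4:10212311-10214669 at 3.85 FPKM in fl4 and 1.15 FPKM in WT, both higher, next to the short feature listed at 0 in fl4. The fourth, chr4:10223403-10223553, stood at 10.7 FPKM in fl4 and 3.65 FPKM in WT. Neighbours within this segment thus lay on both sides.

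At 18.2 Mb the directions were also mixed. The span chr4:18221971-18222862 is listed with 2 features, the first at 5.86 FPKM in fl4 and 13.6 FPKM in WT and the second at 9.33 FPKM in fl4 and 19.3 FPKM in WT. The next feature, chr4:18222985-18223265, stood at 15.1 FPKM in fl4 and 39.2 FPKM in WT, 2.60-fold lower, whereas chr4:18224962-18225068, only 107 bp long, stood at 14.6 FPKM in fl4 and 0.479 FPKM in WT. Of these 4 features 3 were lower and the shortest was higher.

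At 15.2 Mb chr4:15202183-15202297 and chr4:15234923-15235037 had identical values, 28.6 FPKM in fl4 and 7.98 FPKM in WT, 3.59-fold higher, on equal spans of 115 bp. The feature after them, chr4:15252692-15255484, stood at 2.31 FPKM in fl4 and 7.89 FPKM in WT. In all, 6 features of the stretch shared both of their values with another feature of the table, 1.18% of the 509 with at least 1 FPKM in fl4 and above 0 in WT, against 1.20% of such features overall. Such a pair is counted as 2 features here although the values carry the information of 1.

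In layout the stretch had a wider median gap between spans than other parts of the numbered chromosomes. It listed 31.8 features per Mb, 18.7 of them with at least 1 FPKM, and the density per Mb elsewhere was not computed. The median gap between spans with a feature of at least 1 FPKM was 31.2 kb against 24.0 kb elsewhere. The 954 features fall on 866 spans, of which 84 (9.70%, against 10.8% elsewhere) are listed with 2 or 3 features. The median span was 2124 bp against 2072 bp elsewhere.

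Features on a shared span mostly lay on the same side of equality. Of 51 spans with at least 2 features of 1 FPKM or more, 42 (82.4%) had all features on the same side, 25 higher and 17 lower in fl4, against 63.7% of 3403 such spans elsewhere. With median centring the counts were 36 of 51 (70.6%) in the stretch and 62.7% elsewhere, and the distance between stretch and genome narrowed with that scaling. The gap between the log2 ratios of a shared span had a median of 0.30 in the stretch and 0.26 elsewhere, and it reached 1 in 7 of the 51 spans (13.7%, against 7.96% elsewhere), among them both spans at 29.9 Mb.

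At the limits of position, the features on either side were of low to moderate abundance. The last feature of at least 1 FPKM before 10 Mb, chr4:9889418-9895586, stood at 85.0 FPKM in fl4 and 46.4 FPKM in WT, and the first inside, chr4:10025575-10026734, at 6.65 FPKM in fl4 and 0.185 FPKM in WT, a log2 ratio of 2.69. The last feature inside, chr4:39973400-39980575, stood at 18.2 FPKM in fl4 and 18.1 FPKM in WT, and the first beyond, chr4:40006351-40010504, at 17.6 FPKM in fl4 and 18.5 FPKM in WT. At the limit of 1 FPKM, chr4:38267040-38270591 was kept with 1.03 FPKM in fl4 and 0.606 FPKM in WT, and chr4:25464155-25468073 was left out with 0.959 FPKM in fl4 and 0.998 FPKM in WT.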

How the data were processed

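The deposited values are FPKM, computed by the authors, per the file headers, with 1 file for fl4 and 1 for WT. The submitters' processing notes name Bowtie 0.12.2, with no role given. The build, the annotation, the filters and the program behind the FPKM are details not given in the sources used here. Positions match row by row between the files. The 8 features whose position is not readable were left out.

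Members and lists were chosen with earlier results of these data known. Features that reached 1 FPKM in fl4 or WT entered the counts, and ratios were log2((FPKM + 1)/(FPKM + 1)), fl4 over WT. A 2-fold difference is a rule of size, not a test; folds printed beside FPKM values are plain ratios. Sums use features above 0 in both libraries unless stated. Named features were the 12 most abundant; of those that reached 10 FPKM and were above 0 in both libraries, the 6 highest and the 6 lowest ratios; up to 5 per direction with at least 10 FPKM that were listed at 0 in the other library; and those next to the limits. Segments with 3 or more 2-fold differences, spans with shared values and the largest feature of the window from 34 Mb were named after their values were seen.

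Depth could not be recovered: in the 1000 features lowest in FPKM multiplied by span, a given log2 ratio (rounded to 3 decimals) was seen at most 4 times, which shows no unit of single reads. Alternatives covered pseudocount, minimum, fold limit, scaling, features at 0, span and sums per span. Python 3.11.15, pandas 2.3.3, NumPy 2.4.6 and SciPy 1.17.1 were used.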

Additional observations from a re-analysis of the deposited data

Results flagged for a closer look

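Some signal lay in features of the stretch that the comparisons at a minimum of 1 FPKM leave out, the 392 features under 1 FPKM in both libraries. Their sum was 85.2 FPKM in fl4 and 83.5 FPKM in WT, which flagged them as data outside the main comparisons with a higher sum in fl4. Of them 216 were higher and 176 lower in fl4, 17 were listed at 0 in fl4 and 44 in WT. Among all features of at least 1 FPKM 58.6% were higher in fl4. The same counts over all features under 1 FPKM were not made, so no excess particular to the stretch can be read from these. The total FPKM of the fl4 library was 1.10 times that of the WT library, a larger ratio than that of these sums. With a single library per genotype the difference was not tested.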

How the results depend on the processing

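Among 209 values under other settings, 137 kept within the margin of their result (the 95% Wilson interval for shares, 0.1 for log2 ratios, 1.5 times for counts) and 72 did not. The interval treats features as independent, though some share a span or values, and measures no spread between libraries. Scaling moves log2 ratios by nearly constant steps, -0.079 with median centring and -0.076 with the trimmed mean factor, both inside the margin. The step with equal totals was -0.14, beyond it. For log2 ratios under scaling these labels were thus mostly fixed in advance, and the tally does not measure robustness. The shares beyond 2-fold on the higher and the lower side (8.19% and 7.12%) were 3.74% and 2.67% at a pseudocount of 5 FPKM, 4.82% and 4.19% without a minimum, 13.9% and 14.8% at 1.5-fold and 2.49% and 1.78% at 4-fold, and the lower share was 10.85% at a pseudocount of 0.1 FPKM. The share without a minimum drops by construction, as 954 features are counted in place of 562. With equal totals over all but the 20 most abundant features, ratios shift by -0.14, the median log2 ratio became -0.067 beside -0.05 over all features, the log2 ratio of the summed FPKM -0.20 and the number of higher windows 11 of 30. As scaled by the authors, the log2 ratio of the sum (-0.06) was 0.28 without the most abundant feature and 0.047 without the 6 features of at least 1000 FPKM, a setting chosen after the data were seen. No paired analysis was possible because there is 1 library per genotype, and for the same reason leaving out a replicate was not run. What depth limits cannot be stated, as the files give no counts.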
